A study of Mus musculus with 16 samples.

Results

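The clustered protocadherins are 58 of the 25719 gene IDs counted in mouse trigeminal ganglia. They were chosen by symbol, as every Pcdha, Pcdhb or Pcdhg gene with a cluster number. The rule used no measured value, but earlier results of these data were known when it was set. The alpha cluster held 14 of them, the beta cluster 22 and the gamma cluster 22. All lay on chromosome 18 of GRCm38, in the order alpha (36930184 to 37187661), beta (37264938 to 37524479) and gamma (37661793 to 37841873). The alpha cluster had 12 alternate members and the C-type members Pcdhac1 and Pcdhac2. The gamma cluster had 12 members of type A, 7 of type B and the C-type members Pcdhgc3, Pcdhgc4 and Pcdhgc5. A pair of IDs carried the symbol Pcdha11, and RefSeq gives Pcdha10 at the start of ENSMUSG00000007440. The symbol of each other member was that of the nearest RefSeq start. Pcdhgb8 is listed as a polymorphic pseudogene in the annotation.

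Clustered protocadherins are cadherin-like adhesion proteins of the cell surface. Each neuron is known to express a few members from the large set, picked through promoter choice in which CTCF, cohesin and DNA methylation take part. Matching combinations of members on facing membranes bind each other, which lets a neuron tell its own branches from those of other neurons. In the alpha and gamma clusters each member has 1 variable exon of its own, which encodes the extracellular part, spliced to constant exons that all members of the cluster share. Beta members consist of their own exon and have no shared constant exons. C-type members are known to be less subject to random choice than alternate members, and Pcdhgc4 is the gamma member known for its part in neuron survival.

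The ganglia came from Nogo-A knockout (KO) and wild-type (WT) mice, 25 days after birth (P25) or on embryonic day 14 (E14). The 4 groups, P25 KO, P25 WT, E14 KO and E14 WT, had 4 libraries each, and each library came from 1 whole ganglion. The series lists 4 animals per group, but some E14 library names share a number with R and L, so some of these ganglia may share an animal. The strain and the exact Nogo-A allele are not stated in the labels. The comparisons asked how the ganglion differs between genotypes at each stage and between stages in each genotype.

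Library totals ran from 22797780 to 24832799 counts in P25 KO, from 23883486 to 29562379 in P25 WT, from 15532373 to 21026134 in E14 KO and from 16442312 to 20658599 in E14 WT. Rtn4, the gene of Nogo-A, averaged 368 ± 17.9 CPM (counts scaled to the library total with TMM factors) in P25 KO and 489 ± 58.7 CPM in P25 WT (SD, n = 4 each). At E14 it averaged 298 ± 74.7 CPM in KO and 360 ± 164 CPM in WT. Neither difference passed the test (log2 fold changes -0.41, SE 0.26, adjusted p = 1, and -0.27, SE 0.26, adjusted p = 0.943, edgeR). A gene total adds all Rtn4 transcripts, and the labels do not state which exons were deleted, so this total is not a check of the genotype labels.

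The cell types of the ganglion differed between the stages. All 14 sensory neuron markers were detected, with a summed level of 17344 to 18748 CPM in P25 KO, 17604 to 20487 CPM in P25 WT, 15125 to 17551 CPM in E14 KO and 14028 to 18677 CPM in E14 WT, and 7 of 14 rose and 4 fell with stage in each genotype. The 6 Schwann cell markers summed to 21087 to 43262 CPM in P25 KO and 27464 to 32295 CPM in P25 WT, against 441 to 543 CPM in E14 KO and 408 to 578 CPM in E14 WT, and 6 of 6 rose in each genotype. The 6 satellite glia markers summed to 5811 to 8001 CPM in P25 KO and 5117 to 7832 CPM in P25 WT, against 1017 to 1372 CPM in E14 KO and 1000.4 to 1374 CPM in E14 WT, with 4 of 6 higher at P25 in each genotype. The 3 markers of dividing cells summed to 6.18 to 7.67 CPM in P25 KO and 2.26 to 4.48 CPM in P25 WT, against 37.2 to 43.0 CPM in E14 KO and 18.4 to 63.5 CPM in E14 WT, and 2 of 3 fell in KO and 3 of 3 in WT. Oligodendrocyte markers summed to 42.2 to 100.4 CPM in P25 KO and 1.36 to 85.7 CPM in P25 WT, and to at most 0.117 CPM in E14 KO and 0.183 CPM in E14 WT, where Mobp, Olig2 and Opalin were at 0. Macrophage markers rose (5 of 5 in KO, 4 of 5 in WT), with sums of 144 to 220.1 CPM in P25 KO and 181 to 207 CPM in P25 WT, against 36.8 to 55.1 CPM in E14 KO and 47.2 to 87.02 CPM in E14 WT. Fibroblast markers rose (4 of 5 in KO, 3 of 5 in WT), with sums of 1249 to 1572 CPM in P25 KO and 1287 to 1580.2 CPM in P25 WT, against 491 to 755 CPM in E14 KO and 632 to 1007 CPM in E14 WT. All 4 erythroid markers fell in each genotype, with sums of 67.4 to 98.9 CPM in P25 KO and 40.6 to 92.9 CPM in P25 WT, against 441 to 837 CPM in E14 KO and 393 to 774 CPM in E14 WT. The part of these shifts in any stage difference given here was not tested. In whole ganglia, fewer cells of a type and less RNA per cell cannot be told apart.

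The deposited counts of alpha and gamma members were almost equal within each cluster. In a library, the highest alternate alpha member exceeded the lowest by 1.57% to 10.0%, and the range for alternate gamma members was 3.32% to 10.99%. Summed over their members, the alpha counts made up 0.0843% to 0.225% of a library and the gamma counts 0.511% to 1.58%. The annotation gives 2860 bases of exon shared by the alpha members and 2116 bases shared by the gamma members. The 9 Ugt1a genes, another family with shared exons that was looked at after these counts were seen, had 5 to 7 members at the same lowest count in every library. Counts of this kind can result when a read on a shared exon is added to each member. The processing notes list kallisto, which would split such reads among members, without giving its role. The labels do not state the counting rule, so this reading of the counts was not tested. Calls of 14 alpha or 22 gamma members are not independent measurements.

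**Figure D1:**
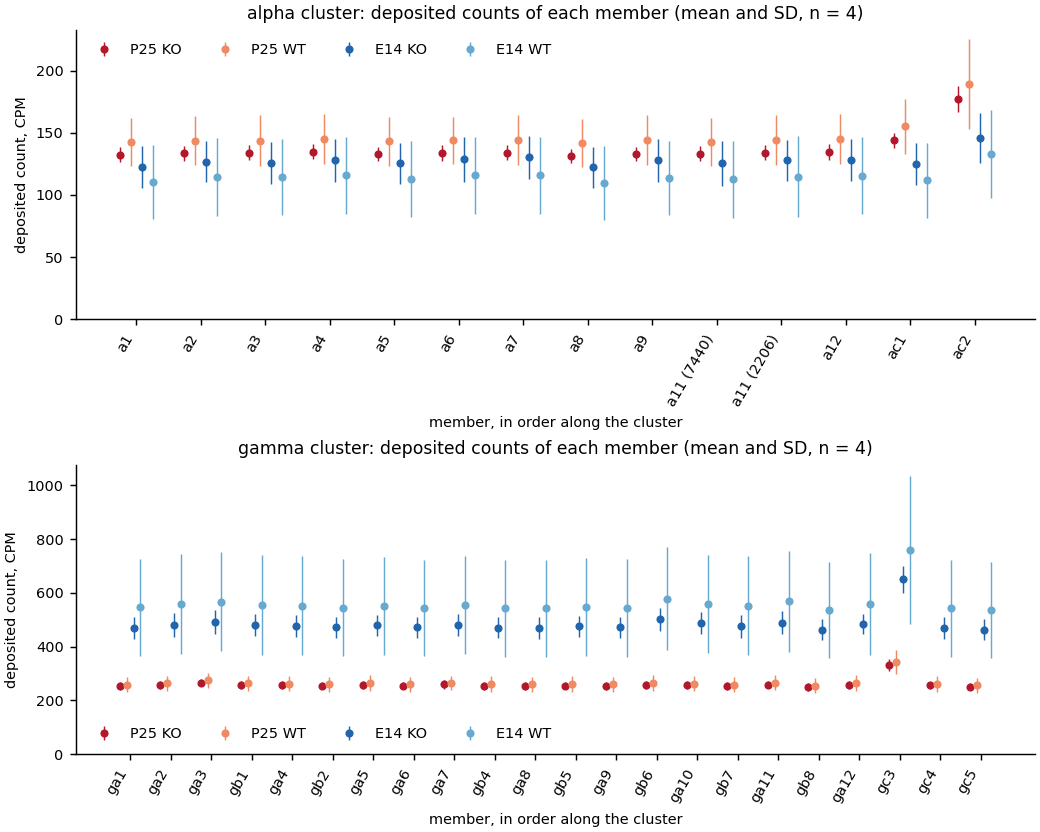
Deposited counts of each alpha member (top) and gamma member (bottom), in CPM, with the mean and SD of 4 libraries in P25 KO, P25 WT, E14 KO and E14 WT. Digits in brackets are the last digits of the gene IDs that share the symbol Pcdha11. Members of a cluster lie at nearly the same level, with Pcdhac2 and Pcdhgc3 standing above the rest of their clusters.

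Each cluster was therefore also described by a floor and an excess. The floor is the lowest member count of the cluster in a library, which on this reading holds the reads on shared exons and the own reads of that lowest member. The excess of a member is its count minus the floor. It is a lower limit of the reads on its own exon, except where the member shares further exon bases with other members. The lowest alpha member was Pcdha8 in 15 of 16 libraries and Pcdha1 in the other library, and the lowest gamma member was Pcdhgb8 in 16 of 16. Pcdha8 and Pcdhgb8 thus served as the floors and have no tested excess. Shared exon bases numbered 3154 in Pcdhgb1, 3157 in Pcdhga4, 2224 in Pcdhgb4 and 2227 in Pcdhga8, against 2116 in Pcdhgb8. The excess of Pcdhgb1, Pcdhga4, Pcdhgb4 and Pcdhga8 may therefore hold reads of other members. The division into floor and excess was introduced after the counts were seen.

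A pair of libraries stood apart in these genes. Library 2 of E14 WT had an alpha floor of 1099 counts, against 2369 to 2665 in the other E14 WT libraries, and a gamma floor of 13111 counts, against 8576 to 9643. Its log-scale profile over all genes had a mean correlation of 0.937 with its group, against 0.966 to 0.972 in the other 3. Library 4 of P25 WT had a ratio of floor to summed excess, each per kb of its exon, of 2.66 in the alpha cluster and 3.24 in the gamma cluster. The other P25 WT libraries had ratios of at most 1.57 and 1.41. The P25 KO libraries had gamma ratios of 1.68 to 1.85. Results in WT rest on both libraries, and values without them are given where leaving them out changed a call, turned a direction or moved a stage value by over 1.5 times.

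Of the 58 members, 57 passed the low-count filter among 15109 genes tested. Pcdhb1, the first member of the beta cluster, had 0 counts in all 16 libraries, which allows a level of up to 0.00853 CPM over all 351795213 counts. In the deposited counts, 0 members were higher and 32 lower in P25 KO than in E14 KO, against 30.6% higher and 29.2% lower among all genes, 59.8% in all (edgeR, adjusted p under 0.05, here termed called). In P25 WT, 3 members were higher and 29 lower than in E14 WT, against 29.7% and 29.8% of all genes, 59.6% in all. The median log2 fold change of the members was -0.88 in KO and -0.76 in WT, against 0.01 and 0.00 over all genes. The 2 lists of lower calls shared 28 members, which is 28 of 32 in KO and 28 of 29 in WT. All 22 gamma members and 10 beta members made up the lower calls in KO, and all 22 gamma members and 7 beta members those in WT. The gamma values ran from -0.97 to -0.87 in KO and from -1.15 to -1.05 in WT. As they are not independent measurements, the member median and the counts of lower calls largely repeat 1 gamma change.

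After the division into floors and excess, 36 alpha and gamma features were tested. In KO 3 rose and 29 fell with stage, where 30.6% of all genes were higher and 29.2% lower (59.8% in all). In WT 2 rose and 28 fell, where 29.7% were higher and 29.9% lower (59.6% in all). The median log2 fold change was -1.05 in each genotype, and 27 features fell in both. Without the 2 WT libraries that stood apart, 24 features were called in WT, 2 higher and 22 lower. The 6 lost calls were those of Pcdhga3, Pcdhga6, Pcdhga8, Pcdhga9, Pcdhgb2 and Pcdhgb5, with log2 values of -0.61 to -0.32 and adjusted p of 0.0527 to 0.208. In the deposited counts, leaving out the same libraries added WT calls of Pcdhb17 (log2 -0.65, adjusted p = 0.0104) and Pcdhb22.

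The alpha cluster showed opposite changes in its C-type and alternate members between the stages, while its floor passed no test. The alpha floor was 139, 129, 125 and 133 CPM in P25 KO and 161, 148, 141 and 116 CPM in P25 WT. At E14 it was 106, 145, 120 and 118 CPM in KO and 122, 67.03, 135 and 114 CPM in WT. The stages overlapped in both genotypes, with a log2 fold change of 0.11 in KO (SE 0.18, adjusted p = 0.633, edgeR) and 0.37 in WT (SE 0.18, adjusted p = 0.0902). The WT floor passed the test when E14 WT library 3 was left out (adjusted p = 0.0269) or P25 WT library 4 (adjusted p = 0.0485).

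Pcdhac1 (ENSMUSG00000103255), a C-type member that lies between the alternate alpha members and Pcdhac2, showed the largest rise with stage among the excess values. Its excess was 11.7, 14.4, 10.8 and 12.5 CPM in P25 KO, against 2.09, 2.75, 2.97 and 3.48 CPM in E14 KO. In WT it was 13.7, 16.9, 15.2 and 8.07 CPM at P25, against 2.71, 1.40, 2.67 and 2.50 CPM at E14. Every P25 library lay above every E14 library of its genotype. The fold changes were 4.36 in KO (log2 2.12, SE 0.26, adjusted p = 8.42e-07) and 5.76 in WT (log2 2.53, SE 0.27, adjusted p = 9.72e-08). Without the 2 libraries that stood apart, the WT value was 2.54 (adjusted p = 3.98e-09).

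Pcdhac2 (ENSMUSG00000102697), the C-type member nearest the constant exons and the one known for its expression in serotonergic neurons of the brain, was the alpha member with the largest excess. Its excess was 52.7, 47.1, 41.5 and 40.0 CPM in P25 KO, against 18.7, 27.5, 22.7 and 26.1 CPM in E14 KO. In WT it was 61.9, 48.2, 57.6 and 22.2 CPM at P25, against 19.9, 15.9, 32.1 and 24.6 CPM at E14. The stages did not overlap in KO, and in WT P25 library 4 lay among the E14 values. Pcdhac2 rose 1.91-fold in KO (log2 0.93, SE 0.26, adjusted p = 0.00466) and 2.05-fold in WT (log2 1.04, SE 0.26, adjusted p = 0.00205).

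In the deposited counts, where on this reading shared reads are included, the rises of the C-type alpha members were far smaller. Pcdhac1 had a log2 fold change of 0.20 in KO (adjusted p = 0.352) and 0.47 in WT (adjusted p = 0.0345). Pcdhac2 had 0.28 in KO (adjusted p = 0.219) and 0.51 in WT (adjusted p = 0.0277). The KO value of Pcdhac2 passed the test in 2 of 25 other settings, with an adjusted p of 0.0395 when the compared groups alone were fitted and of 0.0389 without the 2 WT libraries that stood apart. The WT call was lost for Pcdhac1 in 7 of 25 other settings (adjusted p 0.0514 to 0.150) and for Pcdhac2 in 5 of 25 (0.0574 to 0.118). Single libraries ended the Pcdhac1 call when left out, with an adjusted p of 0.0719 without E14 WT library 2 and of 0.0944, 0.0534 and 0.0589 without P25 WT libraries 1, 2 and 3. The Pcdhac2 call ended without E14 WT library 2 (adjusted p = 0.0610), P25 WT library 1 (0.0913) or P25 WT library 3 (0.0574). The remaining alpha members ran from 0.04 to 0.11 in KO and from 0.31 to 0.37 in WT, and none was called.

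The alternate alpha members fell in excess, 9 of 11 in each genotype, with 8 of them called in both. Their median log2 fold change was -1.19 in KO and -1.15 in WT. Pcdha7, with the highest excess per kb among them over all libraries, had 3.34, 2.50, 2.01 and 2.14 CPM in P25 KO, against 4.93, 8.12, 8.33 and 11.8 CPM in E14 KO. In WT Pcdha7 had 3.502, 3.12, 1.87 and 1.70 CPM at P25, against 4.63, 3.90, 7.62 and 8.46 CPM at E14. It fell in KO (log2 -1.73, adjusted p = 0.000136) and in WT (log2 -1.28, adjusted p = 0.00217), with no overlap of stages in either. Pcdha6 fell (log2 -1.53 in KO and -1.49 in WT), and so did Pcdha12, second in level per kb (-1.02 in KO and -0.94 in WT). With the own exon bases of the longest transcript alone, Pcdha4 ranked just above Pcdha12.

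Pcdha9 was called in KO alone, where its excess was 1.52, 1.47, 1.69 and 1.51 CPM at P25, against 6.19, 7.79, 3.44 and 5.81 CPM at E14 (log2 -1.91, SE 0.33, adjusted p = 5.44e-05). In WT its excess was 2.70, 3.37, 2.51 and 1.47 CPM at P25, against 3.12, 2.99, 3.75 and 6.92 CPM at E14 (log2 -0.75, SE 0.32, adjusted p = 0.0503). Pcdha3 was called in WT alone (log2 -1.16, adjusted p = 0.0110) and had -0.71 in KO (adjusted p = 0.103). Pcdha1 had positive values that did not pass the test (0.71, SE 0.67 in KO and 0.49, SE 0.63 in WT), at an excess of at most 1.45 CPM in any library.

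Summed over members, the excess of alternate alpha members was 23.5 ± 3.13 CPM in P25 KO and 23.7 ± 7.75 CPM in P25 WT, against 54.6 ± 12.7 CPM in E14 KO and 51.0 ± 15.5 CPM in E14 WT (SD, n = 4 each). For the C-type alpha members the sums were 57.7 ± 6.23 and 60.9 ± 20.9 CPM in P25 KO and P25 WT, against 26.6 ± 4.36 and 25.4 ± 7.40 CPM in E14 KO and E14 WT. As a share of the summed alpha excess, C-type members took 71.1% ± 1.55 in P25 KO and 71.8% ± 1.58 in P25 WT, against 33.0% ± 2.90 in E14 KO and 33.4% ± 1.71 in E14 WT. The P25 libraries ran from 69.7% to 73.0% in KO and 70.0% to 73.7% in WT, and the E14 libraries from 30.8% to 37.3% and 31.8% to 35.6%, so both libraries that stood apart lay within the range of the other libraries of their stage. Pcdhac1 took 15.3% of the alpha excess in P25 KO and 16.4% in P25 WT, against 3.51% in E14 KO and 3.08% in E14 WT. Pcdhac2 took 55.8% in P25 KO and 55.4% in P25 WT, against 29.5% in E14 KO and 30.3% in E14 WT. No test was made of these shares, since they rest on the division chosen after the counts were seen.

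**Figure D2:**
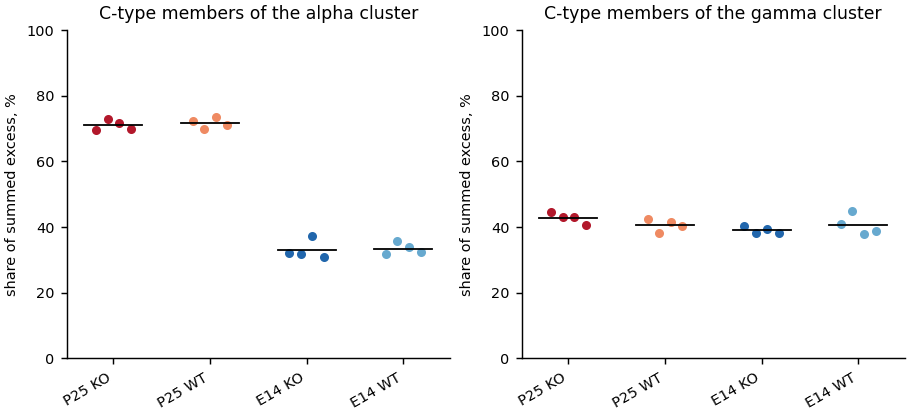
Share of C-type members in the summed excess of the alpha cluster (left) and the gamma cluster (right), in percent, with 1 point per library and a line at the mean of each group. The alpha shares lie at 69.7% to 73.7% in P25 libraries and 30.8% to 37.3% in E14 libraries, while the gamma shares run from 37.9% to 44.8% over all libraries.

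The gamma cluster was lower at P25, in its floor and in nearly all of its members. The gamma floor was 269, 236, 247 and 248 CPM in P25 KO, against 462, 511, 415 and 461 CPM in E14 KO. In WT it was 247, 221, 291 and 260 CPM at P25, against 432, 799.7, 488 and 423 CPM at E14. No P25 library reached an E14 library. The floor fell 1.85-fold in KO (log2 -0.89, SE 0.18, adjusted p = 0.000319) and 2.10-fold in WT (log2 -1.07, SE 0.18, adjusted p = 4.61e-05). Without the 2 libraries that stood apart, the log2 value in WT was -0.82 (adjusted p = 2.24e-05).

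Pcdhgc3 (ENSMUSG00000102918), the C-type member known to act on Wnt signalling through Axin1 and on dendrite branching, had the largest excess of all members. Its excess was 94.5, 79.6, 82.0 and 68.5 CPM in P25 KO, against 198, 200.3, 174 and 178 CPM in E14 KO. In WT it was 103, 96.1, 114 and 40.2 CPM at P25, against 177, 368, 192 and 163 CPM at E14. The stages did not overlap in either genotype. Pcdhgc3 fell 2.31-fold in KO (log2 -1.21, SE 0.27, adjusted p = 0.000775) and 2.55-fold in WT (log2 -1.35, SE 0.27, adjusted p = 0.000281). In WT the log2 value was -0.76 (adjusted p = 7.25e-05) without the 2 libraries that stood apart.

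The other C-type gamma members did not follow it. Pcdhgc4 (ENSMUSG00000023036) had an excess of 5.48, 5.65, 5.43 and 5.79 CPM in P25 KO, against 2.78, 8.07, 4.95 and 6.95 CPM in E14 KO. Its excess in WT was 6.88, 7.96, 6.28 and 4.25 CPM at P25, against 6.10, 11.4, 6.37 and 5.83 CPM at E14. The stages overlapped and neither test passed (log2 -0.03, SE 0.30 in KO and -0.22, SE 0.29 in WT). Without the 2 libraries that stood apart, the WT value was 0.21 (adjusted p = 0.519). With single libraries left out it ran from -0.28 to 0.06 in WT and from -0.26 to 0.20 in KO, so no direction is given. Pcdhgc5 (ENSMUSG00000102543), the last member of the cluster and one known to be expressed late in brain development, was the lowest C-type member.

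For Pcdhgc5 the excess was 0.453, 0.431, 0.411 and 1.15 CPM in P25 KO, against 0.379, 0, 0.117 and 0.333 CPM in E14 KO. In WT it was 0.926, 1.43, 0.610 and 0.734 CPM at P25, against 0.413, 0.854, 0.512 and 0.307 CPM at E14. These values stand for 9 to 34 counts per P25 library and 0 to 14 counts per E14 library. Pcdhgc5 rose in KO (log2 1.58, SE 0.65, adjusted p = 0.0433) and had 0.84 in WT (SE 0.57, adjusted p = 0.208), or 1.27 without the 2 libraries that stood apart (adjusted p = 0.1001). The KO call was lost in 6 of 23 other settings (adjusted p 0.0508 to 0.187), of which 5 left out 1 library. The adjusted p was 0.187 without P25 KO library 4, 0.105 without E14 KO library 2, 0.0928 without E14 KO library 3, 0.0541 without P25 WT library 1 and 0.0508 without P25 WT library 4.

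**Figure D3:**
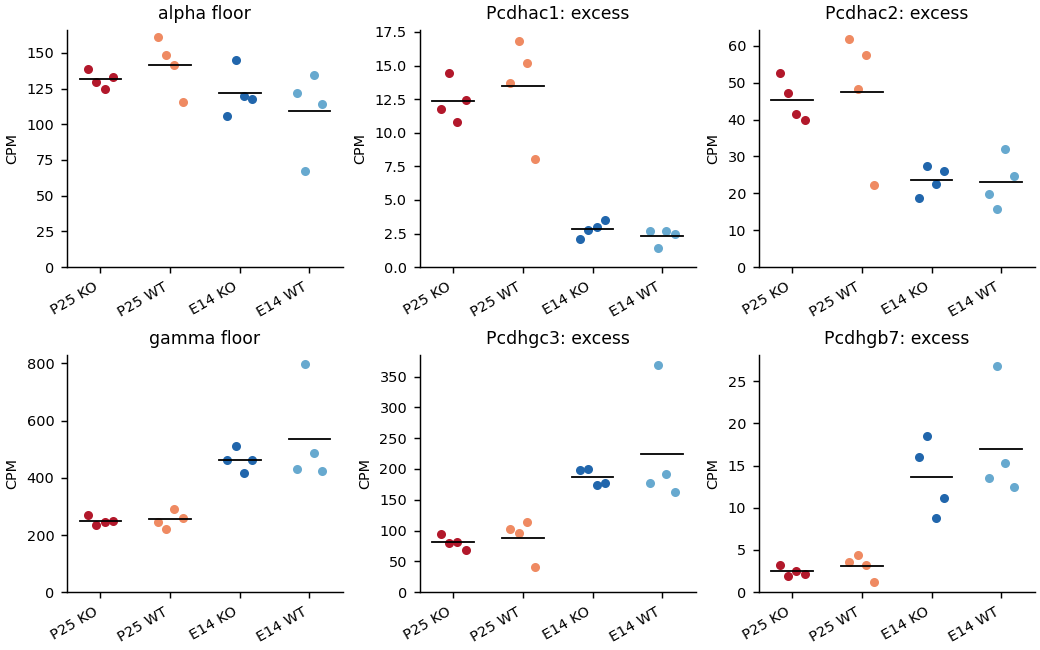
Floors of the alpha and gamma clusters and excess of Pcdhac1, Pcdhac2, Pcdhgc3 and Pcdhgb7, in CPM, with 1 point per library and a line at the mean of each group. Pcdhac1 and Pcdhac2 are higher in P25 groups and the gamma floor, Pcdhgc3 and Pcdhgb7 are lower; the E14 WT library at 799.7 CPM of gamma floor and the P25 WT library at 22.2 CPM of Pcdhac2 are the ones that stood apart.

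Type A and type B members, the alternate members of the gamma cluster, fell together. Of type A, 12 of 12 were called lower in each genotype, with median log2 fold changes of -1.08 in KO and -1.06 in WT. Of type B, 6 of 6 were called lower in KO and 5 of 6 in WT, with medians of -1.37 and -1.09. Pcdhgb4 was the type B member outside the WT calls (log2 -0.54, adjusted p = 0.0903), against -1.01 in KO (adjusted p = 0.00367). Part of the WT calls rested on the 2 libraries that stood apart. Without them the calls of Pcdhga3, Pcdhga6, Pcdhga8 and Pcdhga9 of type A and of Pcdhgb2 and Pcdhgb5 of type B were lost. The summed type A excess was 85.4 ± 3.97 CPM in P25 KO and 101 ± 35.9 CPM in P25 WT, against 203 ± 20.02 CPM in E14 KO and 222 ± 60.8 CPM in E14 WT. The summed type B excess was 30.6 ± 2.60 CPM in P25 KO and 38.1 ± 13.4 CPM in P25 WT, against 99.9 ± 7.95 CPM in E14 KO and 109 ± 35.5 CPM in E14 WT.

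Pcdhgb7 (ENSMUSG00000104063) had the largest fall of all alpha and gamma members. Its excess was 3.21, 1.90, 2.56 and 2.18 CPM in P25 KO, against 15.99, 18.5, 8.80 and 11.2 CPM in E14 KO. In WT it was 3.62, 4.42, 3.27 and 1.20 CPM at P25, against 13.5, 26.8, 15.2 and 12.4 CPM at E14. The stages did not overlap in either genotype. Pcdhgb7 fell 5.53-fold in KO (log2 -2.47, SE 0.35, adjusted p = 6.05e-06) and 5.42-fold in WT (log2 -2.44, SE 0.35, adjusted p = 5.90e-06).

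Pcdhgb6 (ENSMUSG00000103088), the type B member with the highest excess per kb, had 8.98, 7.54, 8.76 and 7.02 CPM in P25 KO, against 43.3, 40.3, 33.9 and 37.0 CPM in E14 KO. In WT Pcdhgb6 had 11.03, 10.9, 10.9 and 5.02 CPM at P25, against 33.6, 64.8, 41.2 and 34.1 CPM at E14. It fell 4.78-fold in KO (log2 -2.26, adjusted p = 2.25e-07) and 4.58-fold in WT (log2 -2.20, adjusted p = 2.93e-07). Pcdhga10 fell in KO (log2 -1.84, adjusted p = 1.11e-05) and in WT (log2 -1.58, adjusted p = 5.81e-05). Pcdhga11, second in level per kb among type A members, fell in KO (log2 -1.73, adjusted p = 1.89e-05) and in WT (log2 -1.66, adjusted p = 2.70e-05).

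Pcdhgb1, second in level per kb among type B members, fell in KO (log2 -1.45, adjusted p = 9.23e-05) and in WT (log2 -1.18, adjusted p = 0.000646). The level of Pcdhgb1 may hold reads of other members, through exon bases shared outside the floor. Without the 2 libraries that stood apart, the WT values were -0.70 for Pcdhgb1, -1.86 for Pcdhgb7, -1.73 for Pcdhgb6, -1.16 for Pcdhga10 and -1.25 for Pcdhga11, and each was still called. Pcdhga3, the type A member with the highest level per kb, had 15.9, 16.9, 17.7 and 13.9 CPM of excess in P25 KO, against 26.9, 36.3, 23.4 and 28.4 CPM in E14 KO. In WT Pcdhga3 had 20.4, 24.3, 24.5 and 8.62 CPM at P25, against 29.4, 40.1, 31.7 and 27.5 CPM at E14. Its fall was among the smaller ones of the cluster (log2 -0.84 in KO, adjusted p = 0.00729, and -0.73 in WT, adjusted p = 0.0170). The WT call for Pcdhga3 was lost without the 2 libraries that stood apart (log2 -0.35, adjusted p = 0.0681).

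The 5 largest falls of alternate gamma members in KO belonged to neighbours at the end of the alternate series. Pcdhgb6, Pcdhga10, Pcdhgb7, Pcdhga11 and Pcdhga12 hold positions 14 to 19, with the floor member Pcdhgb8 at position 18. Pcdhga12 also fell (log2 -1.64 in KO and -1.25 in WT). In WT, however, Pcdhga2 (log2 -1.43) and Pcdhga1 (log2 -1.39), at positions 2 and 1, fell more than Pcdhga12. Over the 18 alternate gamma members with a tested excess, Spearman's rho of position with log2 fold change was -0.57 in KO and -0.39 in WT. It was -0.38 in KO and -0.05 in WT over 11 alternate alpha members. Over 21 beta members it had the other sign, 0.45 in KO and 0.26 in WT. The gamma pattern was chosen after the values were seen and is given as a description, since members share libraries and 1 floor.

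**Figure D4:**
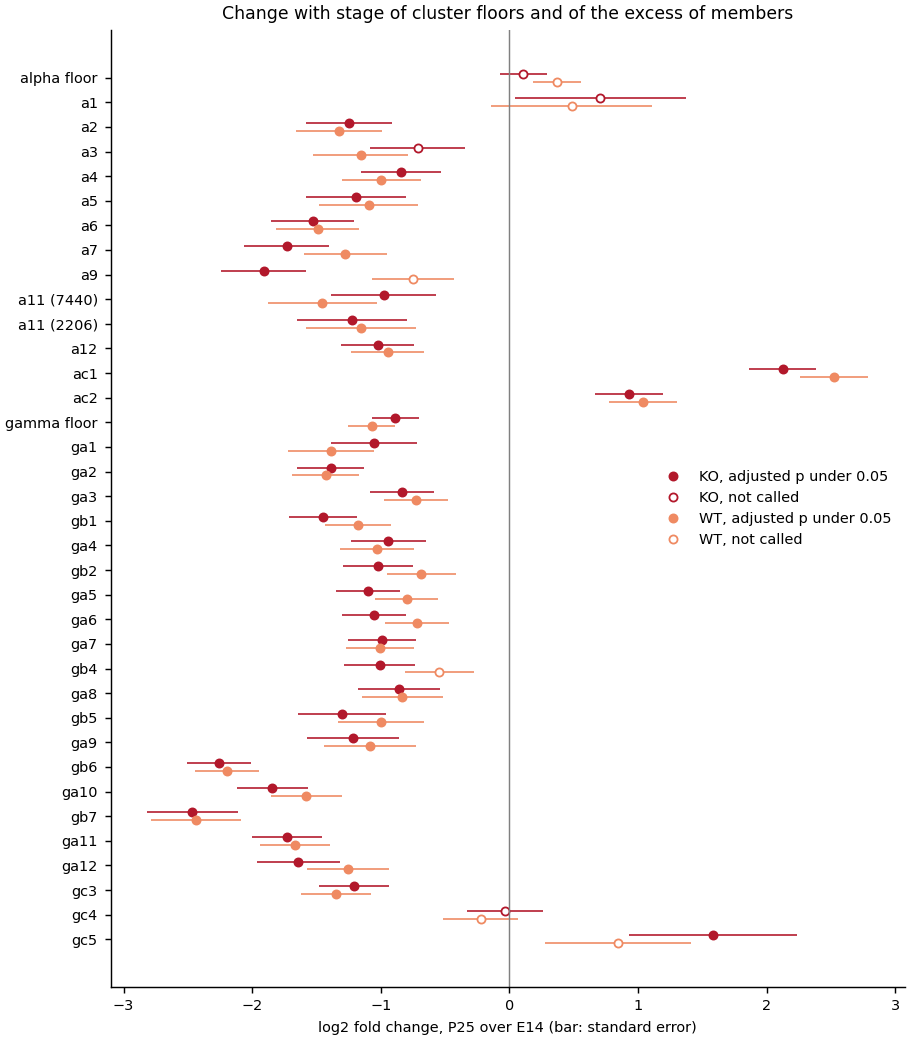
log2 fold change of P25 over E14 for the floors and for the excess of each alpha and gamma member, in cluster order from top to bottom, with bars of 1 standard error. Filled points passed an adjusted p of 0.05. Pcdhac1 at 2.12 and 2.53 and Pcdhac2 at 0.93 and 1.04 lie right of 0 in KO and WT, and most other points lie left of it, with Pcdhgb7 at -2.47 and -2.44 farthest.

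The C-type shares of the gamma cluster overlapped between the stages in WT. In KO they ran from 40.6% to 44.6% at P25, just above the 38.1% to 40.4% at E14. They averaged 42.9% ± 1.65 in P25 KO and 40.7% ± 1.86 in P25 WT, against 39.0% ± 1.07 in E14 KO and 40.6% ± 3.06 in E14 WT (SD, n = 4 each). The summed C-type gamma excess was 87.4 ± 10.3 CPM in P25 KO and 95.5 ± 34.2 CPM in P25 WT, against 193 ± 13.5 CPM in E14 KO and 233 ± 99.1 CPM in E14 WT.

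Levels of different alpha and gamma members were compared as excess CPM per kb of own exon. Own exon here means all annotated exon bases found in that member alone, over all its transcripts. Pcdhgc3 led at 24.0 ± 3.16 CPM per kb in P25 KO and 26.1 ± 9.72 in P25 WT, against 55.5 ± 3.97 in E14 KO and 66.5 ± 28.5 in E14 WT. Pcdhac2 followed at P25, with 14.97 ± 1.91 CPM per kb in KO and 15.7 ± 5.87 in WT, against 7.84 ± 1.30 in E14 KO and 7.63 ± 2.30 in E14 WT. At E14 the second place was held by Pcdhgb6, with 15.1 CPM per kb in E14 KO and 16.9 in E14 WT, where it had 3.15 in P25 KO and 3.69 in P25 WT. Pcdhac1 had 4.83 CPM per kb in P25 KO and 5.26 in P25 WT, against 1.10 in E14 KO and 0.906 in E14 WT.

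Alternate alpha members were low, with a median of 0.803 CPM per kb in P25 KO and 0.859 in P25 WT, against 1.91 in E14 KO and 1.91 in E14 WT. Type A gamma medians were 2.66 CPM per kb in P25 KO and 3.02 in P25 WT, against 6.24 in E14 KO and 6.41 in E14 WT. Type B gamma medians were 1.37 in P25 KO and 1.76 in P25 WT, against 4.27 in E14 KO and 5.01 in E14 WT. The floor members are outside these medians. An excess leaves out the own reads of the floor member from every other member, so levels per kb are lower limits. Pcdhgb1, Pcdhga4, Pcdhgb4 and Pcdhga8 are exceptions, since their excess may hold reads of other members.

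Beta members carry no shared exon, and their deposited counts were used as they stood. The 21 detected members summed to 71.2 ± 3.72 CPM in P25 KO and 68.8 ± 13.8 CPM in P25 WT, against 106 ± 11.2 CPM in E14 KO and 95.4 ± 28.4 CPM in E14 WT. In KO 10 of 21 fell and none rose with stage, where 29.2% of all genes were lower and 30.6% higher. In WT 7 of 21 fell and 1 rose, where 29.8% of all genes were lower and 29.7% higher, so the count of lower calls in WT was close to that of all genes. Pcdhb2, Pcdhb3, Pcdhb5, Pcdhb8, Pcdhb19 and Pcdhb21 fell in both genotypes, which is 6 of 10 calls in KO and 6 of 7 in WT. Pcdhb4, Pcdhb6, Pcdhb17 and Pcdhb20 were called in KO alone and Pcdhb7 in WT alone. The difference of these changes between genotypes passed no test for any member. Pcdhb21 and Pcdhb22 overlap in the annotation, so reads in the overlap may not be told apart.

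Pcdhb2 had the largest fall of the beta cluster, with 0.741, 0.689, 0.365 and 0.556 CPM in P25 KO, against 2.59, 4.34, 2.10 and 3.57 CPM in E14 KO. In WT Pcdhb2 had 1.13, 1.01, 1.08 and 0.425 CPM at P25, against 2.29, 1.04, 4.49 and 3.68 CPM at E14. The stages did not overlap in KO, and in WT they met at the low library 2 of E14. The log2 fold change was -2.41 in KO (SE 0.44, adjusted p = 9.02e-05) and -1.66 in WT (SE 0.42, adjusted p = 0.00202).

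Pcdhb8 was second, with 1.24, 1.77, 1.14 and 2.06 CPM in P25 KO, against 4.49, 4.06, 6.47 and 4.38 CPM in E14 KO. In WT Pcdhb8 had 1.77, 2.40, 2.01 and 1.74 CPM at P25, against 5.18, 3.29, 6.82 and 4.34 CPM at E14. The stages did not overlap in either genotype. The log2 fold change was -1.64 in KO (SE 0.29, adjusted p = 6.26e-05) and -1.31 in WT (SE 0.28, adjusted p = 0.000494). In KO, Pcdhb6 followed at -1.24 (adjusted p = 0.00337) and Pcdhb3 at -1.21 (adjusted p = 0.000924), and in WT Pcdhb5 at -1.18 (adjusted p = 0.00424).

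Pcdhb12 went against the other called beta members. It had 3.99, 3.79, 3.92 and 3.53 CPM in P25 KO, against 1.96, 1.96, 3.03 and 3.57 CPM in E14 KO. In WT Pcdhb12 had 3.46, 3.12, 4.88 and 1.70 CPM at P25, against 2.43, 0.732, 2.27 and 1.27 CPM at E14. It rose in WT (log2 0.97, SE 0.36, adjusted p = 0.0266) and had 0.53 in KO (SE 0.35, adjusted p = 0.199). The WT call was lost in 6 of 25 other settings (adjusted p 0.0511 to 0.114). It was lost without E14 WT library 2 (adjusted p = 0.0645) or 4 (0.0624), and without P25 WT library 1 (0.0511) or 3 (0.114).

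Per kb of median transcript, Pcdhb9 was the highest beta member over all libraries and held a similar level in the 4 groups. It had 2.48 ± 0.290 CPM per kb in P25 KO and 2.26 ± 0.354 in P25 WT, against 2.70 ± 0.609 in E14 KO and 2.13 ± 0.446 in E14 WT. Its log2 fold change with stage was -0.12 in KO (SE 0.22) and 0.09 in WT (SE 0.22), and neither passed the test. The WT value ran from -0.04 to 0.23 with single libraries left out. Pcdhb22 was second, with 2.09 ± 0.250 CPM per kb in P25 KO and 1.82 ± 0.536 in P25 WT, against 2.51 ± 0.496 in E14 KO and 2.55 ± 0.756 in E14 WT. Its stage changes did not pass the test (log2 -0.27 in KO and -0.48 in WT), and the WT value passed it in 4 of 25 other settings, among them without E14 WT library 2 (adjusted p = 0.0126), without P25 WT library 1 (adjusted p = 0.0411) and without both libraries that stood apart (log2 -0.50, adjusted p = 0.0366). The means of Pcdhb9 and Pcdhb22 over all 16 libraries differed by less than 1 SD, and with the longest transcript in place of the median one Pcdhb22 ranked 4 of the beta members.

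**Figure D5:**
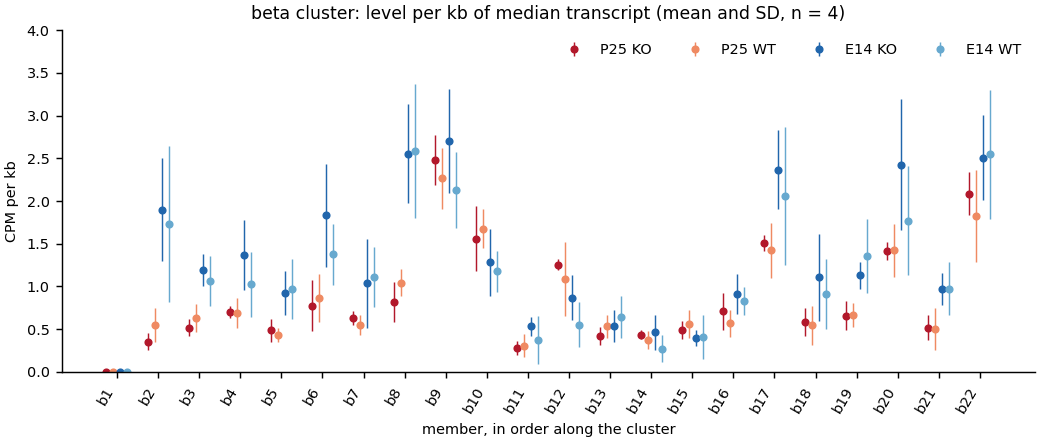
Level of each beta member in CPM per kb of median annotated transcript, in cluster order, with the mean and SD of 4 libraries in P25 KO, P25 WT, E14 KO and E14 WT. Pcdhb9 and Pcdhb22 lie highest over all libraries, Pcdhb2 and Pcdhb8 are lower in P25 groups, and Pcdhb1 is at 0.

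No clustered protocadherin was called between KO and WT at either stage. At E14, 0 of 57 members passed the test in edgeR, 0 had an unadjusted p under 0.05, and DESeq2 called 0, where 0.0199% of all genes were called. At P25 the counts were also 0 of 57, 0 and 0, where 0.0463% of all genes were called (0.0199% higher and 0.0265% lower). Of the 36 floors and excess values, 0 passed at E14 and 0 at P25 with either tool, and those with an unadjusted p under 0.05 numbered 0 at E14 and 1 at P25. The interaction, which tests whether the stage change differs between genotypes, called 0 of 57 members and 0 of 36 floors and excess values with either tool. The share of all genes called for the interaction was 0%, and 0 members and 1 excess value had an unadjusted p under 0.05.

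At P25 the alpha floor had a log2 fold change of -0.11 (SE 0.18) and the gamma floor -0.03 (SE 0.18) in KO over WT. At E14 the alpha floor had 0.16 (SE 0.18) and the gamma floor -0.21 (SE 0.18). Without the 2 libraries that stood apart, the E14 values were -0.02 for the alpha floor and 0.05 for the gamma floor, each of the other sign. These errors leave room for differences larger than the SE in either direction, and a test that did not pass does not show equal levels.

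Among single members, the lowest unadjusted p at P25 belonged to Pcdha9, with an excess of 1.52, 1.47, 1.69 and 1.51 CPM in KO against 2.70, 3.37, 2.51 and 1.47 CPM in WT. The groups overlapped through WT library 4 (log2 -0.70, SE 0.33, adjusted p = 1). At E14 its excess was 6.19, 7.79, 3.44 and 5.81 CPM in KO against 3.12, 2.99, 3.75 and 6.92 CPM in WT (log2 0.47, SE 0.31, adjusted p = 0.945). Pcdha9 also had the lowest interaction p (log2 -1.16, SE 0.45, adjusted p = 0.995).

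Of the other members at E14, Pcdhb14 had 0.75 (SE 0.42, adjusted p = 0.942), Pcdhb12 0.64 (SE 0.37) and Pcdhb20 0.45 (SE 0.28) on the log2 scale. The Pcdhgc5 excess lay at -1.32 at E14 (SE 0.67, adjusted p = 0.945), and at -0.99 without the 2 libraries that stood apart. For the deposited Pcdhgc5 count the E14 value was -0.21. At P25, Pcdhb2 had -0.62 (SE 0.45, adjusted p = 1), Pcdhb8 -0.35 (SE 0.29) and Pcdhb16 0.32 (SE 0.29). For the interaction, Pcdhb2 had -0.75 (SE 0.60), Pcdhb6 -0.57 (SE 0.47) and Pcdhb3 -0.46 (SE 0.39), each with an adjusted p of 0.993. Among the remaining excess values, Pcdhga8 had -0.46 (SE 0.31) at E14, and the Pcdha11 ID ENSMUSG00000007440 had 0.66 (SE 0.43) and Pcdhga12 -0.49 (SE 0.32) at P25. Without the 2 libraries that stood apart, these P25 values were 0.46 for the Pcdha11 ID and -0.73 for Pcdhga12 (adjusted p = 0.503, edgeR). The interaction value was -0.46 (SE 0.38) for Pcdhgb4, or -0.86 without the 2 libraries that stood apart (adjusted p = 0.526), and -0.40 (SE 0.36) for Pcdhac1. At P25, all 22 gamma values (21 excess values and the floor) were below 0 in KO over WT, with a median of -0.25 and none called. These 22 values share 1 floor and the same libraries. Without the 2 libraries that stood apart, the Pcdhgc3 excess had -0.36 (adjusted p = 0.707, edgeR), against -0.12 with all libraries. The gamma floor then had -0.02, against -0.03.

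Genes with a role around the clusters were counted from lists chosen with earlier results of these data known. None of them was called between genotypes at either stage or for the interaction. Their counts with stage stand against 30.6% higher and 29.2% lower of all genes in KO, and 29.7% higher and 29.8% lower in WT, and a share near these is not a result about a list. The unclustered delta-type and related protocadherins, single-gene adhesion proteins, had 2 higher and 4 lower of 11 tested in P25 KO against E14 KO, and 1 higher and 3 lower in WT. Their median log2 fold change was -0.55 in KO and -0.21 in WT. Pcdh9 rose (1.90 in KO, 1.61 in WT), with 56.9 ± 2.19 CPM in P25 KO and 47.6 ± 14.5 CPM in P25 WT, against 15.2 ± 5.01 CPM in E14 KO and 15.6 ± 8.30 CPM in E14 WT. Pcdh12, known as an endothelial protocadherin, fell (-2.32 in KO, -2.37 in WT), and Pcdh15, a tip-link protein of hair cells, fell as well (-2.46 in KO, -2.52 in WT). Pcdh17 rose in KO (0.93), Pcdh19 fell in KO (-0.84), and Pcdh10 fell in both (-0.74 in KO, -0.84 in WT). Of the 4 endothelial markers, 3 were called lower and 1 higher in each genotype. Their sums were 45.4 to 103 CPM in P25 KO and 51.6 to 75.7 CPM in P25 WT, against 151 to 203 CPM in E14 KO and 148 to 182 CPM in E14 WT. The part of endothelial cells in the change of Pcdh12 was not tested.

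CTCF and cohesin, which are known to bring the promoters of the clusters to their enhancers, showed 3 higher and 2 lower of 11 genes in KO and 0 higher and 3 lower in WT, with medians of 0.38 and -0.20. Ctcf itself fell in KO (log2 -0.70, adjusted p = 0.00266) and in WT (log2 -0.80, adjusted p = 0.000914). Mau2, a cohesin loader subunit, fell in both (-0.59 in KO, -0.81 in WT). Nipbl, the partner of Mau2, rose in KO (1.61, adjusted p = 0.00388) and had -0.03 in WT (adjusted p = 0.961). The other calls were Wapl (0.97) and Stag2 (0.91) higher in KO and Stag1 (-0.97) lower in WT. The interaction was called for 0 of these 11 genes, so no difference of stage change between genotypes is given.

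Genes of DNA methylation and chromatin silencing were lower at P25, with 8 of 13 called lower in KO and 11 of 13 in WT, none higher, and medians of -1.33 and -1.37. Setdb1, a histone methyltransferase known to act on the protocadherin clusters, had 35.7 ± 1.99 CPM in P25 KO and 38.2 ± 5.29 CPM in P25 WT, against 97.6 ± 10.1 CPM in E14 KO and 99.0 ± 3.84 CPM in E14 WT. Setdb1 fell in KO (log2 -1.45, adjusted p = 4.88e-08) and in WT (log2 -1.37, adjusted p = 9.54e-08). Dnmt3b, the DNA methyltransferase known to methylate clustered protocadherin promoters, fell (-1.75 in KO and -2.87 in WT), and Uhrf1, which guides Dnmt1 to replicating DNA, fell as well (-3.63 in KO and -3.98 in WT). Tet3, a demethylating enzyme (-2.03 in KO and -2.41 in WT), and Trim28, a corepressor that recruits Setdb1 (-2.02 in KO and -2.15 in WT), were lower too. The markers of dividing cells were lower at P25 too, and their part in these changes was not tested.

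Of 16 intracellular partners, 4 rose and 4 fell in KO and 5 rose and 3 fell in WT, with medians of 0.17 and 0.08. The kinase Ptk2b, which protocadherin cytoplasmic domains are known to inhibit, rose the most (3.30 in KO, 3.203 in WT), with 31.9 ± 1.92 CPM in P25 KO and 40.0 ± 7.02 CPM in P25 WT, against 3.26 ± 1.56 CPM in E14 KO and 4.36 ± 1.48 CPM in E14 WT. Prkca (1.62 in KO, 1.39 in WT) and Nckap1, a subunit of the WAVE actin regulator (0.99 in KO, 0.89 in WT), rose. Marcks, a substrate of protein kinase C, fell (-2.85 in KO, -2.20 in WT), as did Axin1, a binding partner of Pcdhgc3 (-0.96 in KO, -1.19 in WT), and the kinase Ptk2 (-0.93 in KO, -1.09 in WT). Of 7 genes for proteolytic processing and surface binding, 2 rose and 2 fell in each genotype, with medians of -0.19 and -0.26. Adam10, the protease known to shed protocadherin ectodomains, fell (-0.72 in KO and -0.97 in WT), and Psen2, a gamma-secretase subunit, rose (1.37 in KO, 1.42 in WT). Aph1a, another gamma-secretase subunit, fell (-0.51 in KO, -0.80 in WT), and Nlgn1, a synaptic adhesion protein that gamma protocadherins are known to bind, rose (1.55 in KO, 1.70 in WT).

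Of 18 tested genes that flank the clusters on chromosome 18, 3 were higher and 5 lower in KO, and 3 higher and 3 lower in WT, with medians of -0.02 and -0.06. Rell2 rose (2.10 in KO, 2.02 in WT), with 354 ± 46.2 CPM in P25 KO and 347 ± 60.9 CPM in P25 WT, against 82.5 ± 5.56 CPM in E14 KO and 85.7 ± 32.6 CPM in E14 WT. Arap3, a GTPase-activating protein, fell (-1.61 in KO, -2.17 in WT), as did Hars2, a mitochondrial histidyl-tRNA synthetase (-0.99 in KO, -0.76 in WT), and Apbb3 rose (0.58 in KO, 0.59 in WT).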

How the data were processed

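RNA of 16 trigeminal ganglia was sequenced from stranded polyadenylated libraries, per the labels' protocols. The authors deposited whole-number counts per gene. Tools listed in the submitters' processing notes, without role or order, are kallisto 0.46, fastp 0.20.0 and DESeq2 1.32.0, with the GRCm39 assembly, and the handling of reads on shared exons is not given in the sources used here. Groups and library numbers came from the sample titles, and positions and exon lengths from a GRCm38 annotation, used by gene ID.

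Members and lists were chosen with earlier results of these data known. Counts were fitted with edgeR 4.0.16 (quasi-likelihood F test, a mean per group over all 16 libraries, TMM factors, filterByExpr) under R 4.3.3, and p-values were adjusted by Benjamini-Hochberg over all 15109 genes tested. The spread behind each p-value is that between ganglia. Standard errors came from the F statistic. CPM uses TMM-scaled totals. Counting limits cover counting error only. The floor and excess values were fitted in place of the alpha and gamma counts with the totals and scaling of the deposited table, and low excess values carry the noise of 2 counts.

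Named were the C-type members, the 2 highest per kb of each type, among members averaging 0.5 CPM or more the 5 largest called changes in either direction, the 3 lowest genotype and interaction p-values, members going against their cluster, and up to 3 called genes each way in other lists. Other members and genes were named after their values were seen. The fit was checked on simulated counts. DESeq2 1.42.0, other scalings and filters, a replicate block, fewer libraries and summed E14 ganglia whose library names share a number were the alternatives. Figures were drawn with matplotlib 3.10.9.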

Additional observations from a re-analysis of the deposited data

Results flagged for a closer look

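In each group of 4 libraries, a value was singled out when its gap to the nearest of the others, as a share of the whole range, exceeded Dixon's 95% limit. Of 168 groups examined, 17 passed, and chance passes about 1 in 20.

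Library 2 of E14 WT had a Pcdhac1 excess of 1.40 CPM, the next value being 2.50. It had 1168 CPM of deposited Pcdhgc3 count, with 679 next, and a Pcdhgc3 excess of 368 CPM, with 192 next. Its Pcdhgc4 excess was 11.4 CPM, with 6.37 next.

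Library 4 of P25 WT had a Pcdhgb6 excess of 5.02 CPM, with 10.9 next, and a Pcdhb2 level of 0.425 CPM, with 1.01 next. Its ratio of floor to summed excess per kb was 2.66 in the alpha cluster, with 1.57 next, and 3.24 in the gamma cluster, with 1.41 next. Library 4 of P25 KO had a gamma ratio of 1.85, with 1.70 next, and a Pcdhgc5 excess of 1.15 CPM, with 0.453 next. Library 1 of E14 WT had an alpha ratio of 1.65, with 1.316 next.

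Library 3 of P25 KO had a Pcdha6 excess of 1.64 CPM (2.42 next), a Pcdhb3 level of 2.51 CPM (1.85 next) and a Pcdhga8 excess of 3.79 CPM (2.98 next). The Pcdha6 excess was 3.84 CPM in library 3 of P25 WT, with 1.85 next. In library 3 of E14 KO, Pcdhb20 stood at 12.7 CPM, with 7.48 next, and the Pcdhga12 excess at 28.6 CPM, with 20.7 next.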

How the results depend on the processing

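No member and no floor or excess value was called between genotypes or for the interaction under any alternative. Stage calls among the deposited members ran from 30 to 35 in KO and 27 to 35 in WT, and from 27 to 34 and 28 to 42 with single libraries left out. Among floors and excess values they ran from 30 to 33 in KO and 24 to 32 in WT, and from 27 to 32 and 27 to 31 with single libraries left out. Of 2436 values of 98 named log2 fold changes under 25 alternatives, 2352 kept direction and side of the threshold, 26 lost a call, 8 gained one and 50 had the other sign. The sign changes touched 20 results, none called with or without the change, and the cause was not tested.

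Libraries with the same replicate number in different groups did not deviate together (correlations -0.39 to 0.22, 4 of 16 over 0.1). Of these, 3 of 16 libraries were best matched by their own number, so the replicate numbers showed no pairing between groups. E14 ganglia of the same group whose library names share a number were not compared in this check. Whether they share an animal was therefore not tested. The replicate block gave 32 deposited calls in KO and 31 in WT, and 30 and 30 among floors and excess values. It ended the calls of Pcdhac1 in WT (adjusted p = 0.0514) and of the Pcdhgc5 excess in KO (adjusted p = 0.0680).

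With counts per kb of own exon, the C-type alpha share was 69.2% in P25 KO, 69.9% in P25 WT and 30.8% in E14 WT, and the C-type gamma share 37.5%, 35.5%, 34.1% and 35.5% in P25 KO, P25 WT, E14 KO and E14 WT. Deposited member counts hold the shared reads in every member, on the reading used here. With them the alpha shares were 16.7%, 16.6%, 15.1% and 15.2% and the gamma shares 14.7%, 14.7%, 14.8% and 14.9% in that order. Leaving out single libraries moved the alpha share within 70.4% to 71.5%, 71.2% to 72.4%, 31.6% to 33.7% and 32.7% to 34.0%, and the gamma share within 42.3% to 43.6%, 40.1% to 41.6%, 38.6% to 39.3% and 39.2% to 41.6%. Members under 1 CPM, such as Pcdhgc5, rest on few counts, and small differences in them were not detectable at this depth.

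Leaving out E14 WT library 2 and P25 WT library 4 turned these log2 values in E14 KO over E14 WT: Pcdhac1 to -0.016, Pcdhac2 to -0.033, the Pcdhac2 excess to -0.099, the alpha floor to -0.019, Pcdhgc3 to 0.057, the Pcdhgc3 excess to 0.082, Pcdhgc4 to 0.046, Pcdhgc5 to 0.047 and the gamma floor to 0.048. It also turned the WT stage value of the Pcdhgc4 excess to 0.21 and the interaction of the gamma floor to -0.065. Here and below, a member named without the word excess stands for its deposited count. Library totals alone turned P25 KO over P25 WT to 0.013 for Pcdhgc4, 0.015 for Pcdhgc5 and 0.017 for the gamma floor, and the WT stage value of Pcdhb9 to -0.015. The KO stage value of the Pcdhgc4 excess turned to 0.0070 with RLE scaling, 0.0071 with DESeq2, 0.016 without the low-count filter and 0.028 with the replicate block.

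With single libraries left out, E14 KO over E14 WT ran from -0.017 to 0.30 for Pcdhac1, -0.033 to 0.29 for Pcdhac2, -0.0998 to 0.27 for the Pcdhac2 excess, -0.019 to 0.30 for the alpha floor, -0.28 to 0.057 for Pcdhgc3, -0.33 to 0.082 for the Pcdhgc3 excess, -0.26 to 0.046 for Pcdhgc4, -0.26 to 0.047 for Pcdhgc5 and -0.26 to 0.047 for the gamma floor. P25 KO over P25 WT ran from -0.30 to 0.0044 for the Pcdhac1 excess, -0.30 to 0.087 for the Pcdhac2 excess, -0.11 to 0.039 for Pcdhgc3, -0.36 to 0.027 for the Pcdhgc3 excess, -0.086 to 0.038 for Pcdhgc4, -0.088 to 0.041 for Pcdhgc5 and -0.087 to 0.043 for the gamma floor. Stage values of the Pcdhgc4 excess ran from -0.26 to 0.20 in KO and -0.28 to 0.057 in WT, that of Pcdhb9 from -0.044 to 0.23 in WT, and the gamma floor interaction from -0.075 to 0.25.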
